A study of Canis lupus familiaris with 20 samples.

Results

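The mitochondrial ribosomal proteins were followed in dog retina as the 64 genes whose name on the array began with MRPL or MRPS and a number, each read with 1 probe, the brightest of its probes over 20 arrays. Of the gene names on the array 11002 are in the RefSeq gene table of UU_Cfam_GSD_1.0, among them 63 of the 64. Of 43599 probes 111 carried the names of the 64. By name 42 belonged to the large subunit (MRPL) and 22 to the small subunit (MRPS). All 64 passed the filter on dim probes, 56 were well above background on all 20 arrays, and none was saturated.

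Ciliary neurotrophic factor (CNTF), a cytokine of the interleukin-6 family that is studied as a protective agent for photoreceptors, was injected into the vitreous of the right eye of 10 dogs at 12 µg, and buffer (PBS) into the left eye. Retinas were taken after 1 week and each was measured on 1 single-colour Agilent array. The 4 groups held 5 retinas each: CNTF eyes and PBS eyes of CNGB3-mutant dogs, and CNTF eyes and PBS eyes of normal dogs. CNGB3 encodes a subunit of the cone photoreceptor channel, and dogs without its function have day blindness.

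The mutants were CNGB3m/m for the missense change D262N, 3 females and 2 males. The normal dogs were 5 males, of which 4 were carriers (CNGB3+/m) and 1, dog 3, was CNGB3+/+. Labelled ages were 10.7 to 11.5 weeks in mutants and 8.9 weeks in normal dogs, although the series as a whole is described at around 11 months. Sex and labelled age therefore differed between genotypes. The PBS eye had its own injection and belonged to an animal that received CNTF in the other eye, so no uninjected retina entered.

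Mitochondria keep a small genome whose protein-coding genes all specify parts of the oxidative phosphorylation machinery, and a ribosome of their own translates them in the matrix. Its RNA is encoded in the mitochondrion, while all its proteins are encoded in the nucleus, made in the cytosol and imported. Many of these proteins descend from those of the bacterial ribosome, and others were added in mitochondria. Photoreceptors pack mitochondria into their inner segments and have a high demand for ATP.

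The probes on which the results turn are shown because a gene was read through a single 60-base stretch and because probes of a gene did not always move together. The sequences are those in the array files, 5′ to 3′, with positions in canFam2 as those files give them. MRPL37 had 3 probes on the minus strand of chromosome 5, the chosen one at chr5:57831477-57831536, another at chr5:57831545-57833251, whose span is longer than the probe, and the dimmest at chr5:57838538-57841434. MRPS10 was read at chr12:13819754-13819813 on the minus strand, MRPL15 at chr29:8717518-8717577 on the plus strand, and MRPS18A by a probe without a position. MRPS15 had its chosen probe at chr15:8850401-8850460 and another at chr15:8849382-8849441, both on the plus strand. MRPS21 had its chosen probe on an unplaced sequence and another at chr17:62622239-62622298 on the plus strand. Which exon or untranslated stretch each covers was not assigned, nor was its match to the named gene checked.
MRPL37 chosen: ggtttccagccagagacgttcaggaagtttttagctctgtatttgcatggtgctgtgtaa
MRPL37 other: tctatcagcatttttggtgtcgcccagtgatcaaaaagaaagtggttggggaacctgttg
MRPL37 dimmest: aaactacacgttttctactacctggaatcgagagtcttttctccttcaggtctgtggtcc
MRPS18A chosen: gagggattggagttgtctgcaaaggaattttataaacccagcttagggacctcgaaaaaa
MRPL15 chosen: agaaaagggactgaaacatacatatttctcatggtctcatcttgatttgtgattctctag
MRPS10 chosen: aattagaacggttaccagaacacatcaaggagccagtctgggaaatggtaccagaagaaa
MRPS15 chosen: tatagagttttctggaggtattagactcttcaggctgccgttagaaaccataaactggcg
MRPS15 other: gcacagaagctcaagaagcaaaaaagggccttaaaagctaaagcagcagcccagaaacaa
MRPS21 chosen: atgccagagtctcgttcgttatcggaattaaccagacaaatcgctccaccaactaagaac
MRPS21 other: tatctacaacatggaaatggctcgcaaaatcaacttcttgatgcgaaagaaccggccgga

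Values below are log2 of the processed signal minus the array's own 75th percentile over probes, written as log2 signal, and a difference of 1 is a doubling. A member was called when limma's moderated test, adjusted over all probes tested with the Benjamini-Hochberg method, gave an adjusted p under 0.05. The 75th percentile before scaling lay between 291 and 592 intensity units, and 52.0 to 71.9% of probes were above background per array. It ran from 376 to 528 in CNTF eyes and 291 to 526 in PBS eyes of mutants, and from 354 to 529 in CNTF eyes and 454 to 592 in PBS eyes of normal dogs. The 5 slides of 4 arrays nearly followed the groups: slides 1 and 2 held only PBS eyes, slides 4 and 5 only CNTF eyes, and slide 3 held CNTF eyes of normal dogs 1 and 2 with PBS eyes of mutants 4 and 5.

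As a first view, each member was centred on its mean and the median of the 64 was taken on each array. It ran from -0.07 to 0.30 in CNTF eyes of mutants and from -0.09 to 0.13 in their PBS eyes. It ran from -0.06 to 0.22 in CNTF eyes of normal dogs and from -0.38 to -0.01 in their PBS eyes. The PBS eyes of normal dogs 2 to 5 were the lowest 4 arrays of the 20. The 2 lowest of these, from dogs 3 and 4, were also the 2 arrays with the highest 75th percentile. The part of array signal level in this pattern was not tested beyond the fit with that level as a covariate, whose values stand beside each comparison.

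**Figure D1:**
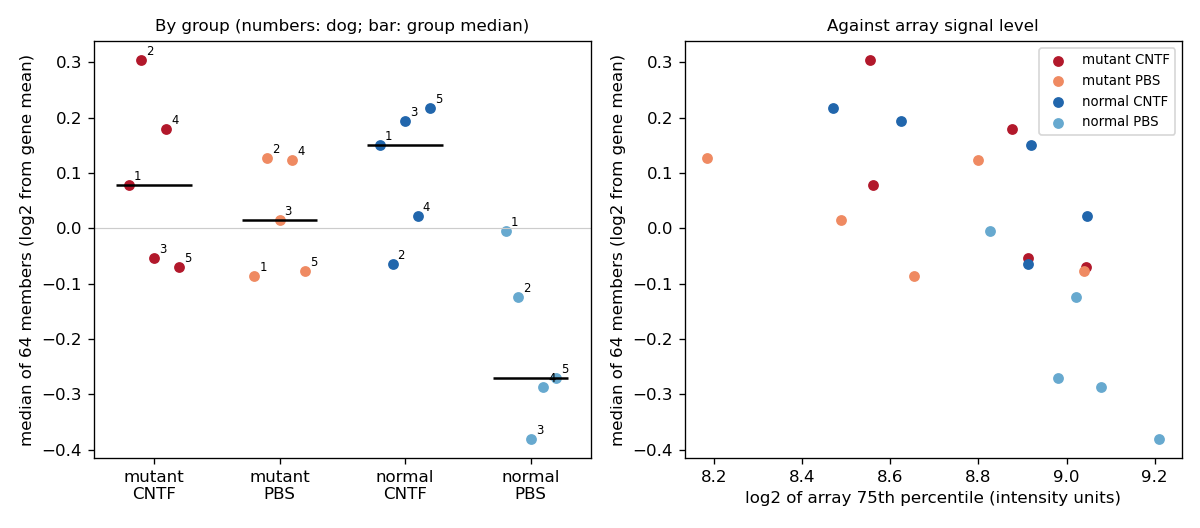
Left, median over the 64 members of the log2 signal centred on each gene's mean, 1 point per array, numbered by dog, with the group median as a bar; right, the same medians against log2 of the array's 75th percentile in intensity units. The PBS eyes of normal dogs run from -0.38 to -0.01, and the 2 lowest of them have the brightest arrays.

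CNTF eyes were compared with PBS eyes of the same normal dogs to ask how the cytokine changed the retina with working cones. Among the 64 members 35 rose and 2 fell, 27 showed no call, and the median log2 difference was 0.31. Over all 29334 probes tested 51.2% were called, 23.6% higher and 27.6% lower, with a median of -0.09. The members were bright, with a median signal of 1456 intensity units against 244 over all kept probes. Among probes above background on all arrays, 30 of 56 members rose and 2 fell (median 0.31). There 5924 of 19934 probes were called higher and 5402 lower, 56.8% in all, with a median of 0.01. The large subunit had 24 members that rose and 1 that fell of 42 (median 0.32), and the small subunit 11 and 1 of 22 (median 0.27), both taken by name. MRPS18A and MRPS30 sit in the large subunit of the mammalian mitoribosome despite their names. When they were moved there, all other members, MRPS36 among them, were left by name without a check of their place. The counts were then 26 and 1 of 44 (median 0.33) and 9 and 1 of 20 (median 0.21). Members classed as having a bacterial counterpart (23 rose and 1 fell of 42, median 0.31) and those classed as mitochondrial only (12 and 1 of 22, median 0.32) lay close together. The classes were set by the number in the gene name, with a few exceptions, and each protein was not checked.

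The largest rise was in MRPS18A, one of several mammalian forms of bacterial S18. It had log2 signals of 1.86, 1.50, 2.0, 1.73 and 2.09 in CNTF eyes of normal dogs 1 to 5, against 0.70, 0.71, -0.05, -0.04 and 0.44 in their PBS eyes. The groups did not overlap, and the PBS eyes of dogs 3 and 4 were the lowest. The difference was 1.49 ± 0.17 (SE), 2.80-fold, higher in 5 of 5 dogs (limma, adjusted p = 5.58e-05).

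MRPL37, a large-subunit protein without a bacterial counterpart, had 1.77, 1.25, 1.77, 1.64 and 2.36 in CNTF eyes of normal dogs, against 0.59, 0.35, 0.21, 0.29 and 0.68 in their PBS eyes. Every CNTF eye lay above every PBS eye, and dog 5 was highest in both. The difference was 1.33 ± 0.11, 2.52-fold (limma, adjusted p = 7.65e-06). All 3 probes of MRPL37 shown above rose, the others by 1.37 ± 0.14 and, for the dimmest, 0.75 ± 0.13.

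The other rises of the leading group were smaller. MRPS16, a small-subunit protein kept from bacteria, rose by 0.89 ± 0.14 over the 4 dogs with both eyes measured, since 1 spot was marked as an outlier. MRPL17, kept from bacteria in the large subunit, rose by 0.86 ± 0.11, and MRPL23, whose bacterial relative lies at the exit of the peptide tunnel, by 0.79 ± 0.15. MRPS26 and MRPS27, small-subunit proteins found only in mitochondria, rose by 0.73 ± 0.16 and 0.70 ± 0.16, and MRPL28 of the large subunit by 0.69 ± 0.16. Their adjusted p lay between 0.000168 for MRPL17 and 0.00508 for MRPL28 (limma).

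For MRPL23 the eyes of normal dogs were just parted: 2.55, 2.09, 2.47, 2.10 and 2.78 in CNTF eyes against 2.08, 1.75, 1.25, 1.45 and 1.49 in PBS eyes. For MRPS27 they overlapped, with 0.22, -0.14, 0.18, -0.10 and 0.47 in CNTF eyes against -0.08, -0.39, -1.09, -0.62 and -0.68 in PBS eyes, because the PBS eye of dog 1 lay above the CNTF eyes of dogs 2 and 4. Of the 64 members, 13 had every CNTF eye above every PBS eye and 1 had every CNTF eye below, against 14.3% and 15.8% of all probes.

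MRPS10, a protein of the head of the small subunit with a bacterial counterpart, went the other way. Its log2 signals were -1.78, -1.82, -1.89, -1.83 and -1.98 in CNTF eyes of normal dogs, against -0.41, -0.51, -0.35, -0.26 and 0.08 in their PBS eyes. The groups were far apart and CNTF eyes were the tighter set. It fell by 1.57 ± 0.12 on the log2 scale, 2.97-fold, lower in 5 of 5 dogs (limma, adjusted p = 2.65e-06). The gene's other probe, on the plus strand, was above background on 0 of 20 arrays, so the fall rests on 1 probe. The other member that fell was MRPL42 (-0.49 ± 0.16, adjusted p = 0.0252), lower in 4 of 5 dogs.

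**Figure D2:**
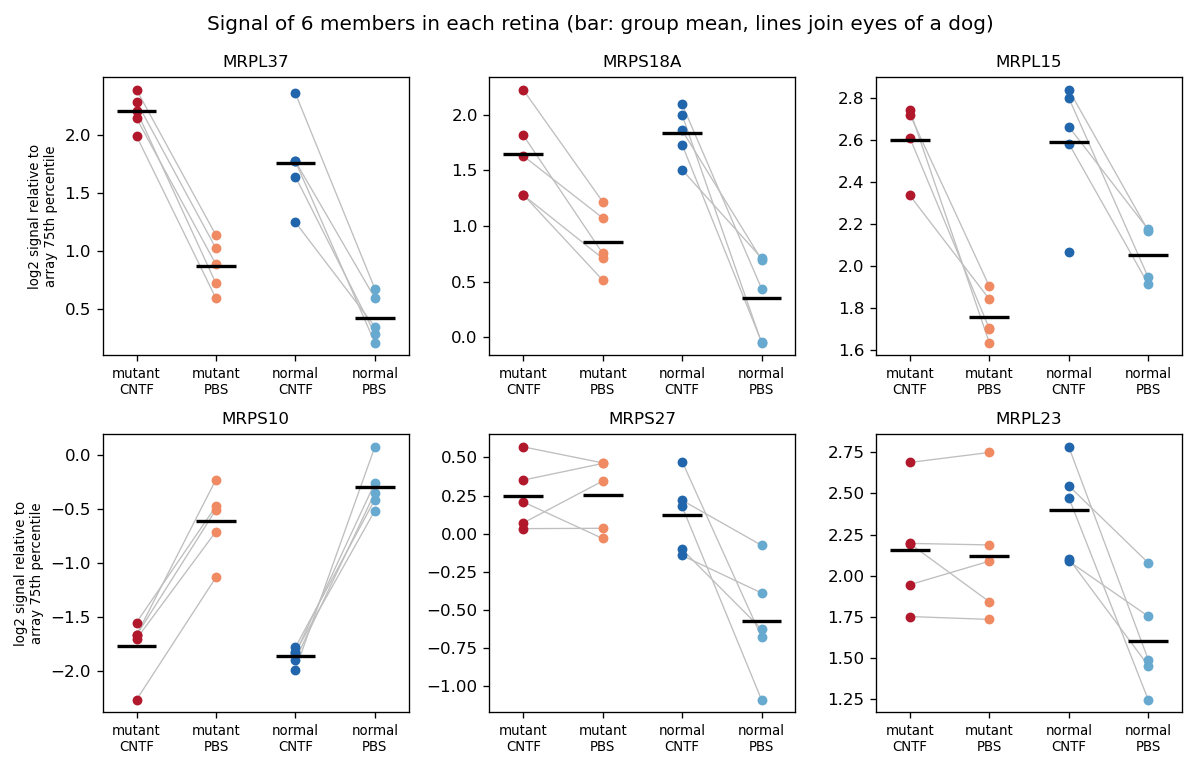
Log2 signal relative to the array's 75th percentile for 6 members in each retina, with group means as bars and lines joining the eyes of a dog; a dog whose spot was marked as an outlier has a single point. MRPL37 and MRPS18A are higher, and MRPS10 lower, in all CNTF eyes than in all PBS eyes of either genotype, while MRPS27 and MRPL23 part the eyes of normal dogs more than those of mutants.

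Dogs differed in how far the members moved. The median difference between the eyes of a dog was 0.18, 0.09, 0.56, 0.32 and 0.55 in normal dogs 1 to 5, with 46 of 62, 43 of 64, 49 of 64, 50 of 64 and 48 of 63 members higher. Dogs 3 and 5 had the largest shifts, and in them the CNTF array was also dimmer than the PBS array, by -0.59 and -0.51 in log2 of the 75th percentile, against -0.11 to 0.09 in dogs 1, 2 and 4. With array signal level as a covariate 22 members rose and 1 fell, with a median of 0.22, and the share of all probes called was also lower, at 35.9%. Without dog 3 the counts were 23 and 1, where 37.4% of all probes were called.

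Slide could not be parted from treatment. With slide as a block in place of dog, 0 members rose and 1 (MRPS10) fell, where 3.91% of all probes were called, although the members' median was 0.35. Within slide 3, where CNTF eyes of normal dogs stood beside PBS eyes of mutants, 32 of 64 members were higher in CNTF eyes, with a median of 0.00. There MRPS18A differed by 0.89, MRPL37 by 0.70 and MRPS10 by -1.44, with treatment and genotype mixed and no test.

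The same comparison in CNGB3-mutant dogs asked for the response of a retina whose cones lack a working channel. Here 10 members rose and 3 fell, 51 showed no call, and the median log2 difference was 0.06. Among all probes 28.9% were called, 11.6% higher and 17.3% lower, with a median of -0.09. By name 7 rose and 1 fell in the large subunit and 3 rose and 2 fell in the small subunit; with MRPS18A and MRPS30 placed in the large subunit these were 8 and 1, and 2 and 2. The 8 members that rose in both genotypes were MRPL37, MRPS18A, MRPL15, MRPL17, MRPL9, MRPS16, MRPL30 and MRPS18C, MRPS10 fell in both, and none was called in opposite directions. Among probes above background on all arrays, 8 of 56 members rose and 3 fell in mutants (median 0.06). Over all of those probes the median was -0.06, with 32.8% called.

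MRPL37 had 2.21, 2.39, 2.14, 2.29 and 1.99 in CNTF eyes of mutants 1 to 5, against 0.72, 1.14, 0.88, 1.02 and 0.59 in their PBS eyes. The eyes were parted with a wide gap. The difference was 1.33 ± 0.11, 2.52-fold (limma, adjusted p = 9.51e-06), and the other probes rose by 1.32 ± 0.14 and, for the dimmest, 0.46 ± 0.13.

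MRPL15, a large-subunit protein kept from bacteria, had 2.34, 2.61, 2.74 and 2.72 in CNTF eyes of mutants 1, 2, 3 and 5, against 1.84, 1.70, 1.63, 1.70 and 1.90 in the 5 PBS eyes. All measured CNTF eyes were above all PBS eyes; the CNTF spot of mutant 4 was marked as an outlier and left out. The difference was 0.83 ± 0.12 (limma, adjusted p = 0.00106) over 4 dogs, and in normal dogs 0.67 ± 0.12 over 4 dogs. The gene's other probe rose by 0.78 ± 0.13 in mutants and 0.45 ± 0.13 in normal dogs.

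MRPS18A had 1.28, 2.22, 1.82, 1.63 and 1.28 in CNTF eyes of mutants, against 0.71, 1.22, 0.75, 1.07 and 0.51 in their PBS eyes. The lowest CNTF eyes, of mutants 1 and 5, were just above the highest PBS eye, of mutant 2. The difference was 0.79 ± 0.17 (limma, adjusted p = 0.00459). With slide and dog both as blocks it was -0.73 ± 0.37 and not called. The remaining rises ran from 0.42 ± 0.11 for MRPL17 to 0.28 ± 0.09 for MRPL3; they included MRPL35 (0.36 ± 0.12), which had -0.13 ± 0.12 in normal dogs and was not called there.

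MRPS10 had -1.55, -2.26, -1.70, -1.67 and -1.67 in CNTF eyes of mutants, against -0.47, -1.13, -0.71, -0.50 and -0.23 in their PBS eyes. Mutant 2 was the lowest in both eyes, and the groups did not overlap. The fall was -1.16 ± 0.12 (limma, adjusted p = 2.93e-05).

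MRPL14, a large-subunit protein at the face towards the small subunit, had 3.83, 4.01, 3.55, 3.69 and 3.15 in CNTF eyes of mutants, against 3.98, 4.60, 4.36, 4.39 and 4.01 in PBS eyes. It was lower in the CNTF eye of all 5 mutants, although the CNTF eye of mutant 2 exceeded the PBS eye of mutant 1. The fall was -0.62 ± 0.13 (limma, adjusted p = 0.00429), and normal dogs had -0.09 ± 0.13, which was not called. MRPS33, a small-subunit protein found only in mitochondria, fell by 0.42 ± 0.10 on the log2 scale (limma, adjusted p = 0.00848), and its eyes were parted in mutants.

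In mutants 5 members had every CNTF eye above every PBS eye and 2 every CNTF eye below, against 6.88% and 7.89% of all probes. The median difference between the eyes was 0.16, 0.06, -0.07, -0.01 and 0.02 in mutants 1 to 5. The CNTF array was brighter than the PBS array in mutants 2 and 3, by 0.37 and 0.42 in log2 of the 75th percentile. With array signal level as a covariate 10 rose and 3 fell, as without it, with a median of 0.13. That fit called 32.1% of all probes, against 28.9% without the covariate. With slide as a block 0 members were called, where 2.71% of all probes were. Without mutant 1, 2 or 4 there were 6, 6 and 5 rises, where 24.7%, 23.1% and 21.8% of all probes were called.

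**Figure D3:**
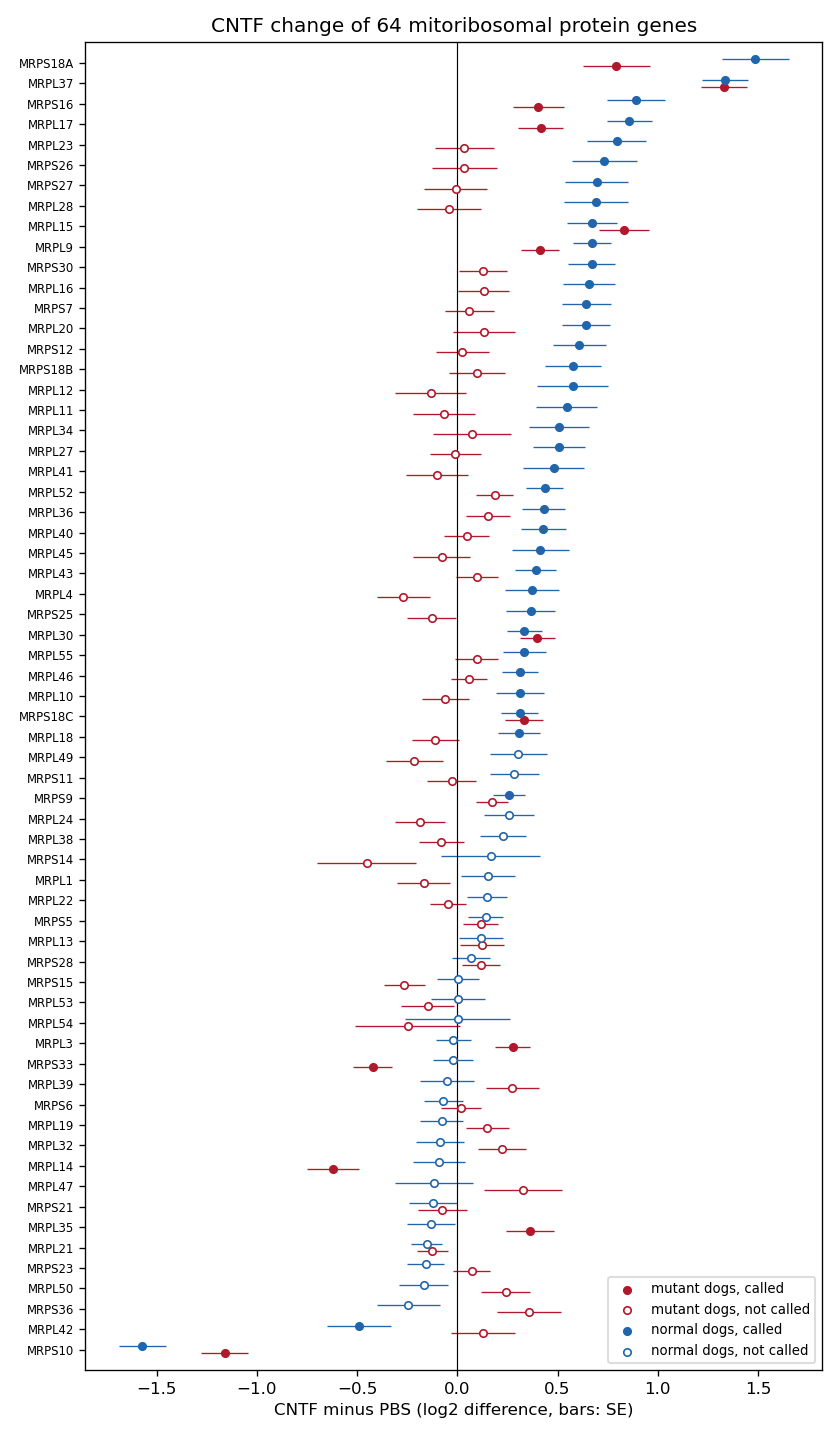
CNTF minus PBS log2 difference of each of the 64 members with its SE, in mutant dogs (red) and normal dogs (blue), ordered by the difference in normal dogs; filled points passed an adjusted p under 0.05. In normal dogs 35 filled points lie right of 0 and 2 left, in mutants 10 and 3, and MRPS10 lies far left in both.

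Whether the response to CNTF itself differed between genotypes was tested as the mutant minus the normal difference. No member was called, nor was any of the 29334 probes (0%), with limma. Unadjusted, 33 members (51.6%) and 10163 probes (34.6%) had a p under 0.05, and the members' median was -0.30 against -0.06 over all probes. The 4 members with the smallest p were MRPL23 (-0.76 ± 0.21), MRPL4 (-0.64 ± 0.19), MRPS7 (-0.58 ± 0.17) and MRPL28 (-0.73 ± 0.23), each at an adjusted p of 0.103. MRPL4 and MRPL23 belong to bacterial families that line or border the peptide tunnel, and MRPS7 to the head of the small subunit.

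MRPL23 had 2.19, 2.69, 1.95, 2.20 and 1.75 in CNTF eyes of mutants, against 1.84, 2.75, 2.09, 2.19 and 1.73 in their PBS eyes. These eyes overlapped throughout, with a difference of 0.04 ± 0.15, against 0.79 ± 0.15 in normal dogs. MRPL37 had a difference between genotypes of 0.00 ± 0.16 (adjusted p = 0.990). With array signal level as a covariate the members' median difference in response was -0.12.

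Genotypes were also compared within PBS eyes, to ask what the mutation changes without the cytokine. Slide was not fully parted from genotype here, nor were sex and labelled age. PBS eyes of normal dogs 1 to 4 lay on slide 1 and that of dog 5 on slide 2. Those of mutants 1 to 3 lay on slide 2 and those of mutants 4 and 5 on slide 3. Of the 64 members 0 were called with limma, and 8 of 29422 probes were (0.0272%, 0.0102% higher and 0.017% lower). Unadjusted, 25 members (39.1%) and 10183 probes (34.6%) had a p under 0.05. The members' median was 0.28 against 0.01 over all probes, and 46 of 64 were higher in mutants. Among probes above background on all arrays these medians were 0.25 and 0.08. With array signal level as a covariate the members' median was 0.10. It was 0.37 with slide as a block (0.10 over all probes). Within slide 2, where dog 5 was the only normal dog, it was 0.37 (0.09 over all probes). In male dogs alone it was 0.25 (-0.0002 over all probes), and with carriers as the only normal dogs 0.24 (0.005).

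The smallest p was that of MRPS27, which had -0.03, 0.46, 0.34, 0.46 and 0.04 in PBS eyes of mutants, against -0.08, -0.39, -1.09, -0.62 and -0.68 in PBS eyes of normal dogs. All mutants were above all normal dogs, with mutant 1 and normal dog 1 close together. The difference was 0.83 ± 0.19 (limma, adjusted p = 0.0953). MRPL45, which helps to hold the mitoribosome at the inner membrane, had 0.63 ± 0.18, MRPS12 of the decoding site 0.61 ± 0.17 and MRPS7 0.53 ± 0.15.

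In these PBS eyes 3 members were higher in every mutant than in every normal dog and 1 was lower, against 3.13% and 2.27% of all probes. Without normal dog 1, whose PBS eye had the highest member median of its group, 19 members were higher and 2 lower, where 21.4% of all probes were called. With dog as a random block over all arrays MRPS27 alone of the members was called (0.83 ± 0.18, limma, adjusted p = 0.0489), where 0.501% of all probes were called.

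Within CNTF eyes 0 members were called with limma, 4 had an unadjusted p under 0.05, and 2 of 29355 probes were called (0.00681%). The members' median was -0.02, as it was over all probes. MRPL16, a large-subunit protein kept from bacteria, had 3.36, 3.77, 3.25, 4.10 and 3.87 in CNTF eyes of mutants, against 4.33, 4.26, 4.65, 4.10 and 4.66 in those of normal dogs. Mutant 4 and normal dog 4 nearly touched, and the groups did not overlap. The difference was -0.73 ± 0.19 (limma, adjusted p = 0.560). The next were MRPL36 (-0.36 ± 0.13), MRPL37 (0.44 ± 0.19) and MRPS30 (-0.28 ± 0.13). No member had every mutant above every normal dog and 1 had every mutant below, against 0.293% and 0.794% of all probes. The comparisons share arrays: the PBS eyes of normal dogs enter both their CNTF response and the PBS genotype difference.

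Of the 64 genes 29 had more than 1 probe, and 41 further probes passed the filter. In normal dogs 20 of them belonged to called genes, 18 had the same sign, 13 were also called, and 0 were called the other way; in mutants these were 9, 9, 6 and 0. Of the probes of genes not called through their chosen probe, 2 rose and 4 fell of 21 in normal dogs, and 4 rose and 1 fell of 32 in mutants. In normal dogs the falls were in both further probes of MRPL21 (-0.22 ± 0.08 and -0.56 ± 0.21), in MRPL47 (-0.74 ± 0.28) and in MRPL50 (-0.36 ± 0.12). In mutants a further probe of MRPL49 fell (-0.51 ± 0.17), and those of MRPS7 (0.41 ± 0.12) and MRPS36 (0.38 ± 0.13) rose. The chosen MRPS36 probe mapped to chromosome 8 and its further probes to chromosome 2, and this was not followed up. MRPS15 and MRPS21, small-subunit proteins with bacterial counterparts, had another probe that rose in both genotypes, and for them both sequences are shown above. The chosen MRPS21 probe differed by -0.07 ± 0.12 in mutants and -0.12 ± 0.12 in normal dogs and was not called. It lay on an unplaced sequence, and whether it reads MRPS21 was not checked. MRPS21 was counted as not called through this probe alone. The other MRPS21 probe rose by 0.54 ± 0.08 and 0.73 ± 0.08 in these dogs (limma, adjusted p = 0.000681 and 6.9e-05).

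For MRPS15 the chosen probe had -0.26 ± 0.10 in mutants and 0.00 ± 0.10 in normal dogs, not called, and the other rose by 0.48 ± 0.09 and 0.43 ± 0.09. The genes of this account of further probes were named after their values were seen. A poly(A) signal hexamer (AATAAA or ATTAAA, on the probe's own strand) was in 11 of the 64 chosen probes (17.2%) and in 13.4% of all kept probes. Median GC content was 45% for the members' probes and 43.3% for all kept probes. The members' probes mapped to 29 chromosomes or unplaced sequences, 63 of 64 with a position.

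Brightness of a spot depends on its probe, so signals of different genes have no order as RNA levels. The brightest members were MRPS26, MRPL20 and MRPL27, at 11768, 9071 and 7755 intensity units, and all 3 rose in normal dogs (MRPL20 by 0.64 ± 0.12 and MRPL27 by 0.51 ± 0.13). In mutants none of these 3 was called (0.03 ± 0.16, 0.13 ± 0.15 and -0.01 ± 0.13). The dimmest were MRPL54, MRPS14 and MRPL53, at 39.6, 60.2 and 156 units, and none was called in either genotype.

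Mitoribosomal proteins that the array lists under other names were counted apart. The shares of all probes called were 23.6% higher and 27.6% lower in normal dogs, and 11.6% and 17.3% in mutants. In normal dogs 2 of 5 rose and 1 fell: GADD45GIP1 (1.06 ± 0.15) and AURKAIP1 (0.75 ± 0.14) rose, and PTCD3 fell by 0.32 ± 0.12 on the log2 scale. OXA1L, the inner-membrane insertase that binds the mitoribosome but is not a protein of it, rose by 0.50 ± 0.09. In mutants 0 of these 6 were called with limma, and 1 had an unadjusted p under 0.05. A further 10 genes identified by description or gene number had 3 rises in normal dogs, MRPL2, MRPL58 and MRPL44, and a fall in MRPS35, and in mutants 0 calls and 1 unadjusted p under 0.05.

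Factors that work with the mitoribosome were called in both directions in normal dogs, as probes were as a whole. Of all probes 23.6% were called higher and 27.6% lower there, and 11.6% and 17.3% in mutants. Of 11 translation factors 4 rose and 3 fell in normal dogs: TUFM, the elongation factor that brings transfer RNA, rose by 0.68 ± 0.14 and TSFM, its exchange factor, by 0.79 ± 0.20, while MTRF1, a release factor, had -0.45 ± 0.12. MTFMT, which formylates the initiator transfer RNA, rose by 0.34 ± 0.10 in both genotypes and was the 1 call of 11 in mutants. Of 12 assembly factors 2 rose and 2 fell in normal dogs and 1 fell in mutants; ERAL1, a chaperone of the small-subunit RNA, rose by 0.35 ± 0.12 in normal dogs.

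Among 7 measured genes of mitochondrial DNA upkeep, transcription and RNA processing, 1 rose and 3 fell in normal dogs. There 23.6% of all probes were called higher and 27.6% lower. TFAM, which packages and transcribes mitochondrial DNA, had -0.24 ± 0.31 in mutants, not called, and -1.03 ± 0.31 in normal dogs, called. Of 9 regulators 2 rose and 4 fell in normal dogs, and 1 rose and 3 fell in mutants, where 11.6% of all probes were called higher and 17.3% lower. MYC, which drives ribosome genes in many cells, rose by 1.41 ± 0.13 in mutants and 2.16 ± 0.13 in normal dogs. PPARGC1B, a coactivator of mitochondrial genes, fell by 1.10 ± 0.11 in mutants and by 0.72 ± 0.11 in normal dogs on the log2 scale. NRF1, a factor for nuclear genes of mitochondria, had -0.40 ± 0.12 in mutants and -0.35 ± 0.12 in normal dogs and was called in both.

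The gene groups most like the members were the 47 measured cytosolic ribosomal proteins and 41 respiratory chain subunits. For comparison, 23.6% of all probes were called higher and 27.6% lower in normal dogs, and 11.6% and 17.3% in mutants. In normal dogs 30 cytosolic ribosomal proteins rose and 4 fell, with a median of 0.58, and 19 respiratory chain subunits rose and 3 fell, with a median of 0.31. In mutants these counts were 11 and 2 with a median of 0.18, and 1 and 3 with a median of -0.01. Their medians also followed the members' in the difference of response (-0.41 and -0.38) and in PBS eyes between genotypes (0.37 and 0.28).

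**Figure D4:**
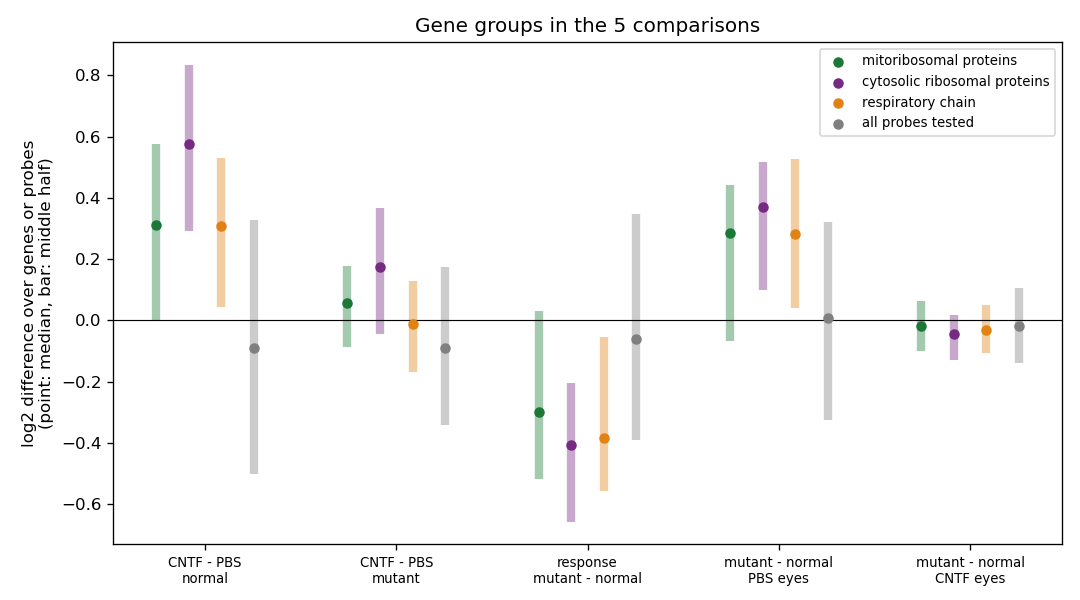
Median log2 difference (points) and middle 50% (bars) over the 64 mitoribosomal genes, cytosolic ribosomal proteins, respiratory chain subunits and all probes tested, in the 5 comparisons. The 3 gene groups lie above all probes in the CNTF response of normal dogs (0.31, 0.58 and 0.31 against -0.09) and near 0 in CNTF eyes between genotypes.

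Whole retina was measured, so fewer cells of a type and less RNA per cell cannot be told apart. Markers of rods, cones, Müller glia and pigment epithelium were measured in every group. In PBS eyes the 5 rod markers and 4 Müller glia markers were all higher in mutants than in normal dogs (medians 0.42 and 0.59), with an unadjusted p under 0.05 for 5 and 3 and no call. In the difference of response these rod and Müller glia markers were all lower (medians -0.55 and -0.67), again with no call. Of 9 microglia and macrophage markers 8 were higher in PBS eyes of mutants (median 0.59), with an unadjusted p under 0.05 for 7. All 4 cone markers were lower there (median -0.28), as were 4 of 5 pigment epithelium markers (median -0.73). None of these was called. Among all probes 34.6% had an unadjusted p under 0.05 between genotypes in PBS eyes. CNTF eyes of mutants had 3 of 5 rod markers called lower, and those of normal dogs had 1 called higher. Of all probes 17.3% were called lower and 11.6% higher in mutants, and 27.6% and 23.6% in normal dogs. Of the Müller glia markers 1 rose and 2 fell in mutants, and 2 rose and 1 fell in normal dogs. Of 5 pigment epithelium markers 1 fell in mutants and 2 in normal dogs. The 9 measured microglia and macrophage markers all rose in normal dogs and 8 rose in mutants. Their summed level, in units of the array's 75th percentile, was 24.7 to 40.4 in CNTF eyes and 6.82 to 9.90 in PBS eyes of mutants, and 23.5 to 36.6 in CNTF eyes and 4.76 to 6.33 in PBS eyes of normal dogs. The 4 cone markers summed to 19.8 to 34.4 in CNTF eyes and 66.4 to 95.1 in PBS eyes of mutants, and to 20.04 to 29.5 in CNTF eyes and 76.3 to 96.2 in PBS eyes of normal dogs. All 4 cone markers fell in normal dogs and 3 in mutants. The microglia and cone sums did not overlap between eyes in either genotype. In PBS eyes the microglia sums also did not overlap between genotypes. The part of all these cells in the members' changes was not tested.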

How the data were processed

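RNA of 20 dog retinas was measured on Agilent arrays, from 100 ng RNA with an integrity number above 8 per the labels' protocols. The deposited array files hold signal intensity per spot, background-subtracted by Agilent Feature Extraction 9.5.3.1 per the file headers and not scaled between arrays. The deposited table of all samples holds log2 values, with Partek 6.4 named in the submitters' processing notes; it served as an alternative only. Every column of it has a median of 6.18 and slopes of 0.96 to 1.06 against log2 of its array's signal, so it is scaled between arrays by a step not given in the sources used here.

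Control spots (1417 per array) and outlier spots were left out and spots of a probe averaged. Log2 signal minus each array's 75th percentile was used. A probe was kept (29466 were) if some group had 4 or more of its 5 arrays well above background. Tests used limma 3.58.1 in R 4.3.3, two-sided, on all probes with at least 3 arrays per group: for CNTF, all 20 arrays blocked by dog, with 1 CNTF term per genotype; for genotype, 10 arrays without covariates. Figures used Python 3.11.15 with matplotlib 3.10.9. The fit was tested on simulated data that held no effect of slide or array signal level, so that run does not bear on either.

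Eyes were paired because both came from 1 dog. As a check, deviations of paired eyes correlated at -0.16 to 0.69 over all kept probes and at -0.35 to 0.87 over the members. The correlation was negative in both sets in normal dogs 2, 3 and 5. A dog's own PBS eye matched its CNTF eye best within its genotype in 4 of 10 dogs over all kept probes. Over the members it did so in 5 of 10. The number of arrays limits the precision. Members, lists and the rule for named genes (the largest called changes with the same direction in all dogs, the 4 smallest p where none was called, the 3 brightest and 3 dimmest, and up to 4 per list by adjusted p) were chosen with earlier results of these data known. Of the member symbols 63 are in the RefSeq gene table of UU_Cfam_GSD_1.0. Promoter and protein sequences were not used here. Alternatives covered scaling, background, filter, dog, slide, array signal level, sex, carrier status and each dog left out.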

Additional observations from a re-analysis of the deposited data

Results flagged for a closer look

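Of 98 groups of 4 or 5 arrays examined for a sample far from the others, 2 were marked, and chance marks about 1 in 20. MRPS10 was -2.26 in the CNTF eye of mutant 2, below the other CNTF eyes of mutants. MRPS30 was 0.80 in the PBS eye of mutant 4, above the other PBS eyes of mutants.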

How the results depend on the processing

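In normal dogs the members' median CNTF difference was 0.27 to 0.40 with a dog left out, 0.19 with quantile normalization, 0.21 with the percentile over probes above background on all arrays, 0.17 in the deposited table, and 0.27 with normexp. Within slide 3, added after seeing the data, it was 0.0049, with genotype mixed in. Counts of members that rose and fell there were 28 and 5 with quantile normalization (48.6% of all probes called, against 51.2% as reported), 27 and 4 with that percentile (55.0%), 14 and 1 with normexp (19.6%), 22 and 5 in the deposited table (48.2%), 22 and 1 with array signal level as a covariate, 0 and 1 with slide as a block, 0 and 0 with slide and dog as blocks, and 23 to 37 and 1 to 3 with a dog left out. In mutants 1 member rose with normexp (median -0.067, 11.2% of all probes called against 28.9% as reported), and 6 without a filter on dim probes (15.9%). With slide as a block 0 rose and 0 fell (median -0.063, 2.71% of all probes called). The same held with slide and dog as blocks (median -0.17, 0.16%). With a dog left out 5 to 10 rose and 3 fell (21.8% to 29.3%). Without the replicate block, 29 rose and 2 fell in normal dogs (39.3% of all probes called), and 8 and 3 in mutants (22.7%). Normexp moved the median of all probes to 0.09 in normal dogs and 0.17 in mutants, and higher calls to 61.1% and 56.0% of calls, against 46.0% and 40.2%; the percentile over probes above background moved it to -0.19 in normal dogs, with 35.4% higher. The difference in response kept 0 called members in all alternatives run, where at most 0.235% of all probes were called. Its median over the members was -0.12 with the signal covariate and -0.37 to -0.23 with a dog left out. In PBS eyes the members' median genotype difference was 0.10 with that covariate. There 1 member was higher with dog as a random replicate block (0.501% of all probes called). With a dog left out 0 to 19 were higher and 0 to 2 lower (0.0034% to 21.4%). Signs were followed only for the members named by the rule in each comparison. Among those, reversed signs in mutants were MRPL35 (-0.20, slide block), and MRPS18A (-0.73) and MRPS16 (-0.018) with slide and dog as blocks. Within slide 3 they were MRPS27 (-0.21) and MRPL28 (-0.030). Other members called higher in normal dogs were also below 0 within slide 3, such as MRPL12 (-0.096) and MRPL10 (-0.044). The cause was not tested.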
